A study of Mus musculus with 88 samples.

Results

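The comparison described here was that of 14 stress-susceptible mice of a pair of inbred strains in the medial prefrontal cortex (mPFC), 8 DBA/2Crl (D2) and 6 C57BL/6Crl (B6), chosen by the strain, region and social defeat labels from the 88 samples of the series. Every mouse was male and 8 weeks old at dissection. Susceptible mice had gone through chronic social defeat stress (CSDS), in which a mouse is placed daily with a larger aggressor, and had then avoided an unfamiliar mouse in a social avoidance test, and their tissue was taken 6 to 8 days after the last defeat. The other mPFC groups were 6 unstressed D2 controls, 6 unstressed B6 controls and 6 B6 mice that had been defeated without coming to avoid (resilient), 32 libraries in all from ribosomal RNA-depleted total RNA, 1 per mouse. No resilient D2 mouse was among the mPFC samples used here. Susceptible mice were those that the social test selected, so a strain difference among them combines genotype, defeat and that selection.

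B6 and D2 are old inbred lines that differ at a large number of genomic variants, in coat colour as well as in behaviour. Sequence variants in or near a gene can change how much RNA it makes in every cell that uses it, whether or not the animal is stressed. The mPFC helps to control social and emotional behaviour, and holds excitatory projection neurons, inhibitory interneurons, astrocytes, microglia, endothelial cells and oligodendrocytes, the cells that wrap axons in myelin. The question of the comparison was which strain differences were found in susceptible mice as well as in unstressed mice, and which differed between these states.

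Values are log2 CPM, read counts scaled to a common library size and put on a log2 scale, and a difference of 1 corresponds to a 2-fold difference in level. Differences are D2 minus B6, given with the standard error (SE) of a fit with limma across all mPFC libraries, and a gene is called where its Benjamini-Hochberg adjusted p was under 0.05 over all 18946 genes. Cortical layer genes were found in all libraries, at a mean of 5.88 to 6.41 log2 CPM over 14 genes. B6 susceptible replicate 4 stood apart in its overall expression, with a highest correlation of 0.9873 to any other library, and had the lowest cortical and the highest olfactory bulb marker level of its group (5.88 and 4.84). D2 susceptible replicate 7 had the highest level of 12 striatal neuron markers among the susceptible mice (4.79, against 2.62 to 3.42 in the others of its strain). No pair of libraries correlated above 0.9962 over 15740 genes with a mean of at least 1 log2 CPM, and PC1, with 40.3% of the variance, separated all B6 from all D2 mice.

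Susceptible D2 and B6 mice differed widely. Among the 18946 genes, 3317 were called (17.5%), 1480 higher in D2 (7.81%) and 1837 lower in D2 (9.70%). Most of these differences were small, as 2075 of the 3317 genes (62.6%) differed by less than 0.5 on the log2 scale, 476 differed by at least 1 (174 higher and 302 lower in D2) and 171 by at least 2. The values of the 8 D2 and 6 B6 mice did not overlap in 1326 genes (7.00% of those tested), 554 higher and 772 lower in D2. The count was 3591 without B6 susceptible replicate 4 and 3123 without the 9 mPFC libraries whose striatal marker level was at least 4 log2 CPM.

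Unstressed controls, which are other mice, differed at 5265 genes (27.8%), 2531 higher and 2734 lower in D2 (14.4% lower). This count fell to 2117 without the 9 libraries high in striatal markers and to 2687 with the mouse ID class described below in the fit, under the 3123 and 3348 genes called in susceptible mice in the same fits. The first fit left out most B6 controls and no susceptible B6 mouse. In the second the median SE of the control difference rose from 0.09 to 0.12, and that in susceptible mice stayed at 0.08. A lower control count there need not mean smaller control differences. The same direction was called in both states for 2552 genes, 1068 higher and 1484 lower in D2, which is 76.9% of the calls in susceptible mice and 48.5% of the calls in controls. Another 763 genes were called in susceptible mice alone, and 695 of them had the same sign in controls. In controls alone 2711 genes were called, and 2381 of them had the same sign in susceptible mice. A pair of genes was called in opposite directions.

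**Figure D1:**
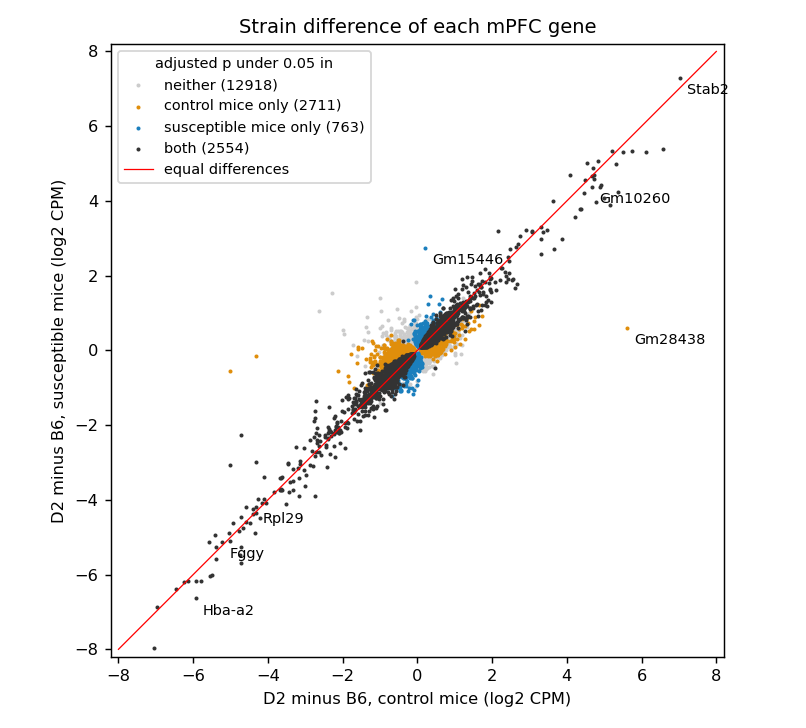
Each point is 1 of 18946 mPFC genes, with its D2 minus B6 difference in log2 CPM in control mice (x axis) and in susceptible mice (y axis), coloured by the comparison in which its adjusted p was under 0.05, and the red line marks equal differences. Large differences lie along the line in both directions, while Gm15446 (0.19 in controls and 2.73 in susceptible mice) and Gm28438 (5.61 and 0.61) lie far from it.

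Large strain differences were mostly called in both states, and small ones often in 1 alone. A fixed threshold misses small differences more often (median SE over all genes 0.08 in susceptible mice and 0.09 in controls). A missing call is therefore not a missing difference. Of the genes called in susceptible mice, 99.4% of the 171 that differed by at least 2 were called in the same direction in controls, 95.1% of the 305 that differed by 1 to 2, 83.3% of the 766 that differed by 0.5 to 1, and 70.1% of the 2075 below 0.5. In the other direction, 97.9% of the 189 control differences of at least 2 were called in susceptible mice, 84.0% of 381 at 1 to 2, 62.5% of 1070 at 0.5 to 1 and 38% of 3625 below 0.5. Over all genes the differences in the 2 states had a Pearson r of 0.89 and a Spearman rho of 0.66, a description across genes that all come from the same libraries.

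**Figure D2:**
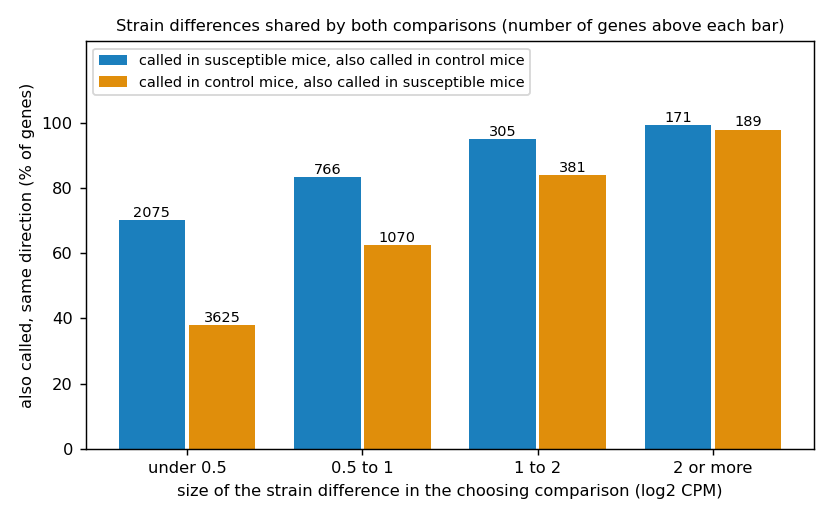
Bars give the percent of genes called in one comparison that were called in the same direction in the other, by the size of the D2 minus B6 difference in the comparison that chose them (log2 CPM), with the number of genes above each bar. The share called in both comparisons rises from 70.1% to 99.4% for genes chosen in susceptible mice and from 38% to 97.9% for genes chosen in controls.

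With all libraries and no further term, differences were on the whole somewhat smaller in susceptible mice. The order of the counts of calls turned in the fits without the libraries high in striatal markers and with the mouse ID class, which cost the control comparison mice or precision. Genes were then grouped by the average of the differences in both states. This can slightly favour the less precise control difference (median SE 0.09, against 0.08 in susceptible mice). The 1070 genes at 0.5 to 1 had a median of 0.61 in susceptible mice and 0.72 in controls. The 313 genes at 1 to 2 had medians of 1.23 and 1.33, and the 183 genes at 2 or more medians of 3.17 and 3.32. In these groups 64.9%, 64.2% and 59.0% of the genes had the smaller difference in susceptible mice. The test of the difference between the states, the strain by stress interaction, passed for no gene (0 of 18946, 0%, limma), while 1766 genes had an unadjusted p under 0.05 (9.32%), and the median SE of this difference was 0.12. Persistence of a call can therefore be counted, but for no single gene was a strain difference shown to shrink or to appear after defeat. The count was 2 without the resilient mice, 2 without D2 susceptible replicate 6, and 1 without B6 control replicate 2 or any one of B6 susceptible replicates 3, 4 and 5.

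The genes with the largest strain differences in susceptible mice had differences of like size in controls, except for Gm15446. Among protein-coding genes with a mean of at least 1 log2 CPM and no overlap between the groups, the largest difference was that of Stab2, a scavenger receptor that clears hyaluronan from the blood (chromosome 10, 86841198 to 87008025, GRCm38). Its level was 6.24 to 7.65 (median 6.77) in susceptible D2 mice and -1.08 to 0.35 (median -0.49) in susceptible B6 mice. The difference was 7.29 ± 0.27 (limma, adjusted p = 1.14e-18), and in controls it was 7.03 ± 0.29. In both states every D2 mouse lay far above every B6 mouse.

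A pair of the 8 genes belong to cilia. Dnah6, a motor protein of cilia (chromosome 6, 73017606 to 73221651), had 4.5 to 5.54 (median 5.22) in susceptible D2 mice and 0.80 to 1.5 (median 1.15) in susceptible B6 mice, a difference of 4.0 ± 0.20 (limma, adjusted p = 8.03e-16) against 3.62 ± 0.21 in controls. Cfap54, a structural protein of motile cilia (chromosome 10, 92775619 to 93081618), had 7.07 to 7.28 (median 7.2) in susceptible D2 mice and 5.18 to 5.66 (median 5.38) in susceptible B6 mice. Its difference was 1.8 ± 0.06, and 1.92 ± 0.07 in controls. Both cilia genes were higher in every susceptible D2 mouse than in any susceptible B6 mouse, as the rule that chose them required.

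The other genes higher in D2 by this rule were Gm10260 (4.38, and 4.68 in controls), Fmo2, an enzyme that oxidizes foreign compounds (2.21 and 2.2), Mroh7 (1.94 and 1.97), Cacna1s, a calcium channel subunit best known from skeletal muscle (1.91 and 2.42), and Gm15446, which is described further below. Except for Gm15446, each was called in controls too. Predicted genes such as Gm10260 can share reads with near-identical copies, and their levels are uncertain.

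Lower in D2 were genes that B6 mice of both states expressed at a moderate level and D2 mice hardly at all. Fggy, a kinase of carbohydrates (chromosome 4, 95557507 to 95926939), had -1.84 to -0.54 (median -0.96) in susceptible D2 mice and 3.61 to 4.3 (median 4.05) in susceptible B6 mice, a difference of -5.13 ± 0.17 (limma, adjusted p = 5.48e-20) against -5.22 ± 0.18 in controls. Myo7a, an unconventional myosin needed for hearing and vision (chromosome 7, 98051060 to 98119524), had 0.67 to 1.53 (median 1.11) in susceptible D2 mice and 4.73 to 5.07 (median 4.83) in susceptible B6 mice. Its difference was -3.74 ± 0.12 (limma, adjusted p = 1.68e-20), and -3.62 ± 0.13 in controls. For both genes the highest D2 value lay far below the lowest B6 value, and the rule that chose them admitted only groups without overlap.

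Myoc, a secreted glycoprotein whose human counterpart is known from glaucoma (chromosome 1, 162639155 to 162649693), had -2.37 to -0.33 (median -1.30) in susceptible D2 mice and 3.28 to 4.44 (median 4.07) in susceptible B6 mice, a difference of -5.26 ± 0.24 against -5.39 ± 0.26 in controls. Tnnt2, a troponin of heart muscle (chromosome 1, 135836354 to 135852260), differed by -3.70 ± 0.18 and -3.64 ± 0.19, and Mcmdc2, a protein of meiotic recombination (chromosome 1, 9908638 to 9942085), by -3.42 ± 0.17 and -3.66 ± 0.18. Rpl29, a protein of the large ribosomal subunit (chromosome 9, 106429454 to 106431568), had -0.29 to 0.53 (median 0.01) in susceptible D2 mice and 3.98 to 4.59 (median 4.28) in susceptible B6 mice, and differed by -4.2 ± 0.11 and by -4.32 ± 0.12 in controls. Hba-a2, an alpha globin (chromosome 11, 32296489 to 32297298), differed by -6.63 ± 0.50 and Gm16503 by -3.73 ± 0.21. Hba-a2 has the near-identical neighbour Hba-a1, which differed the other way, by 0.73 ± 0.19 in susceptible mice, Rpl29 has processed copies in the genome, and reads may be divided among such copies differently for the strains.

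**Figure D3:**
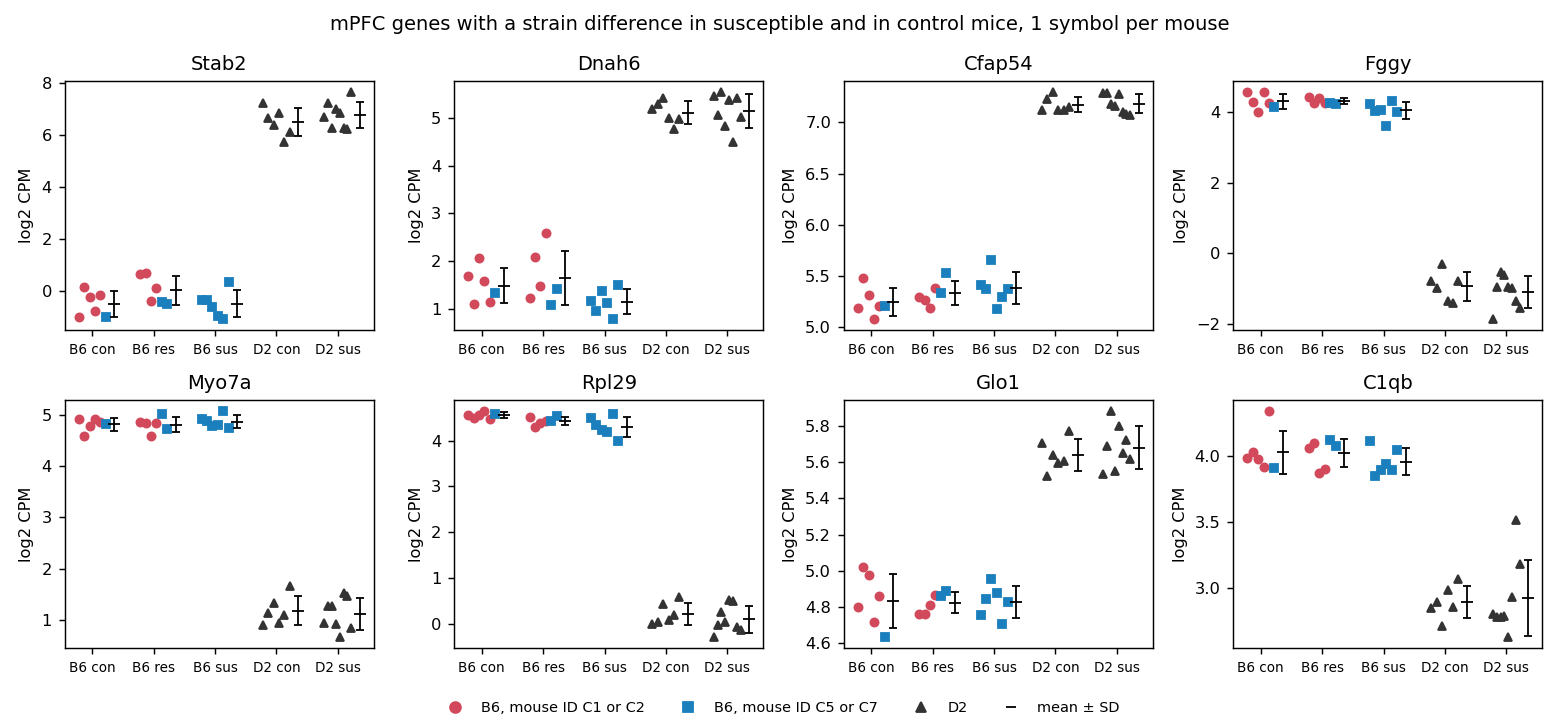
Log2 CPM of 8 genes in every mPFC mouse, by group (con, control; res, resilient; sus, susceptible), with the mean and SD beside each group, and symbols that give the strain and, for B6, the first part of the mouse ID. For Stab2, Dnah6, Cfap54, Fggy, Myo7a, Rpl29, Glo1 and C1qb no D2 mouse overlaps a B6 mouse in any group.

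Genes whose alleles are known to differ between the B6 and D2 lineages were examined as a list of 15, of which 11 were measured. In susceptible mice 5 of the 11 were called (45.5%, against 17.5% of all genes), 3 higher and 2 lower in D2, and 4 of them were called in controls too. Glo1, the enzyme that detoxifies methylglyoxal (chromosome 17, 30584936 to 30626871), which lies in a duplication carried by D2 and related strains, had 5.54 to 5.88 (median 5.67) in susceptible D2 mice and 4.71 to 4.95 (median 4.83) in susceptible B6 mice. The difference was 0.85 ± 0.06 (limma, adjusted p = 9.29e-13) and was 0.81 ± 0.06 in controls. Alad, an enzyme of haem synthesis that is also duplicated in D2 (chromosome 4, 62509169 to 62519918), had 4.59 to 4.86 (median 4.77) in susceptible D2 mice and 3.17 to 3.48 (median 3.27) in susceptible B6 mice, a difference of 1.45 ± 0.07 against 1.55 ± 0.07.

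Mpdz, a scaffold protein linked to alcohol and sedative withdrawal in crosses of these strains, was lower in D2 (-0.32 ± 0.06, adjusted p = 0.000214, limma), as was Myo5a, the myosin mutated by the dilute coat colour allele of D2 (-0.23 ± 0.06, adjusted p = 0.00439). Kcnj9, a potassium channel subunit, was just past the threshold (0.25 ± 0.09, adjusted p = 0.0468), and lost the call in 12 of 25 alternative fits. Among the members that were not called in susceptible mice, Tyrp1, Gpnmb, Ahr, Wdfy1, Cap1 and Grm7 had differences of -0.02, -0.18, 0.14, 0.18, -0.02 and 0.08.

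Cell type and pathway lists showed where the calls of susceptible mice fell and how they compared with controls. By the number of calls, the states differed most in the 18 oligodendrocyte markers among the 23 lists. In susceptible mice 1 of 18 was called (5.56%, beside 17.5% of all genes). This was Mal, a myelin membrane protein, with 5.77 to 6.75 (median 6.2) in susceptible D2 mice and 6.52 to 7.40 (median 6.78) in susceptible B6 mice and a difference of -0.59 ± 0.18 (limma, adjusted p = 0.0221). In controls 16 of 18 were called, all lower in D2 (14.4% of all genes were called lower there). The list's median difference was -0.22 in susceptible mice and -0.80 in controls, beside 0.01 and 0.00 over all genes.

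All 18 members had the smaller difference in susceptible mice, and 15 had an unadjusted interaction p under 0.05 (9.32% of all genes), but none passed after adjustment.

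Tissue markers and mouse IDs moved with this list. The mean level of the 18 markers was 4.95 to 5.81 log2 CPM in B6 controls, 5.05 to 5.79 in B6 resilient, 4.54 to 5.11 in B6 susceptible, 4.4 to 4.99 in D2 control and 4.23 to 4.99 in D2 susceptible mice. The mean level of the 12 striatal markers was 2.96 to 4.85 in B6 controls and 2.84 to 3.37 in B6 susceptible mice, and the striatal list differed by a median of -0.91 in controls (3 of 12 called, all lower in D2) and 0.11 in susceptible mice (0 of 12 called by limma, 0 at an unadjusted p under 0.05). Of the defining striatal genes, Drd2 and Adora2a had means of -0.84 and 0.82 log2 CPM in susceptible B6 mice, so they were low but not absent. Without the 9 libraries with a striatal level of at least 4, of which 4 were B6 controls, 1 oligodendrocyte marker was called in controls instead of 16. In bulk tissue fewer oligodendrocytes and less RNA per oligodendrocyte cannot be told apart.

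The B6 mice also separated by mouse ID. All 6 susceptible B6 mice had IDs that begin with C5 or C7, while 5 of the 6 B6 controls and 4 of the 6 resilient B6 mice had IDs that begin with C1 or C2. The labels give all of them the same strain name and do not say what the first part of the ID stands for. The oligodendrocyte level was 5.15 to 5.81 in the 9 C1 and C2 mice and 4.54 to 5.11 in the 9 C5 and C7 mice, without overlap, and the 1 control and 2 resilient mice among the latter had 4.95, 5.05 and 5.05. The striatal level of these classes overlapped (2.96 to 4.90 and 2.84 to 3.47). With the ID class in the fit, which was added after the values had been seen, 1 oligodendrocyte marker was called in controls, with a list median of -0.30. Defeat and ID class cannot be told apart for this list in the susceptible B6 mice. Of the other tissue lists, 8 olfactory bulb, 7 thalamic and 5 choroid plexus markers held 0 calls in susceptible mice by limma (1 olfactory bulb marker had an unadjusted p under 0.05), although the olfactory bulb level ran from 0.50 to 4.84 among susceptible B6 and from 1.47 to 4.4 among susceptible D2 mice.

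**Figure D4:**
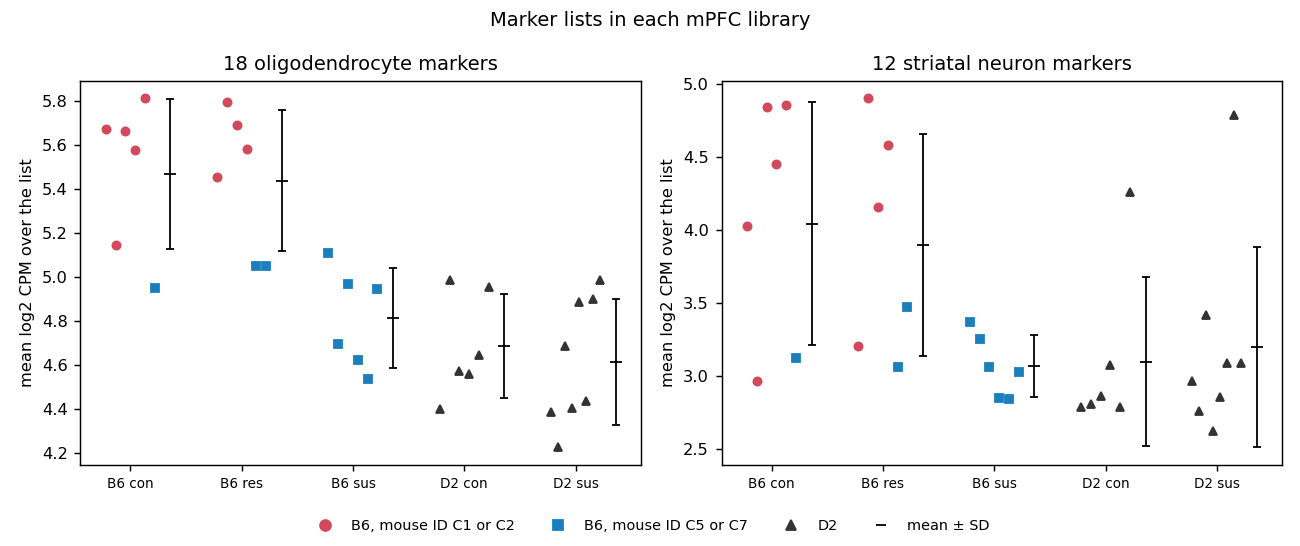
Mean log2 CPM over 18 oligodendrocyte markers (left) and 12 striatal neuron markers (right) in each mPFC mouse, by group, with the mean and SD. In B6 mice the oligodendrocyte level of C1 and C2 mice (5.15 to 5.81) lies above that of C5 and C7 mice (4.54 to 5.11) among controls and among resilient mice, all susceptible B6 mice being C5 or C7, and the striatal level exceeds 4 in 7 of the C1 and C2 mice and in 1 mouse of each D2 group.

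The microglia and astrocyte markers called in susceptible mice were each called in controls too. Of 12 microglia markers, 4 were lower in D2 in susceptible mice and none higher (33.3%, beside 17.5% of all genes called and 9.70% called lower). C1qc and C1qb, subunits of the first complement component that microglia secrete, had the largest differences. C1qb was 2.63 to 3.51 (median 2.8) in susceptible D2 mice and 3.85 to 4.1 (median 3.92) in susceptible B6 mice, a difference of -1.03 ± 0.10 (limma, adjusted p = 1.04e-09) against -1.14 ± 0.10 in controls, and C1qc differed by -1.05 ± 0.11 and -1.14 ± 0.12. Siglech, a microglial surface lectin, differed by -0.45 ± 0.06 and -0.51 ± 0.07. The list's median was -0.04 in susceptible mice, and 8 of its 12 members did not pass.

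Of 12 astrocyte markers, 4 were lower in D2 (33.3%, again beside 9.70% of all genes), among them Gjb6, a gap junction protein (-0.40 ± 0.06, and -0.44 ± 0.06 in controls), the glycolytic enzyme Aldoc (-0.17 ± 0.05) and Aldh1l1 (-0.15 ± 0.04). In all, 3 of 12 endothelial markers were lower (25%, beside 9.70%), namely Ocln, a tight junction protein (-0.21 ± 0.05), Itm2a (-0.20 ± 0.06) and the transporter Slco1a4 (-0.19 ± 0.05). Of 12 precursor (OPC) markers 1 was called (8.33%, beside 17.5% of all genes). In controls 4 of the 12 were called, all lower in D2 (14.4% of all genes were called lower there), and 2 with the ID class in the fit. The list's median difference was -0.05 in susceptible mice and -0.20 in controls. The gene called in susceptible mice was Sox10, a transcription factor of the whole oligodendrocyte lineage. Its level was 1.95 to 2.79 (median 2.46) in susceptible D2 mice and 2.86 to 3.24 (median 3.16) in susceptible B6 mice. It differed by -0.73 ± 0.11 (limma, adjusted p = 1.37e-05) and by -1.16 ± 0.12 in controls, and its groups did not overlap in susceptible mice.

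Of 34 GABA and glutamate receptor subunits 0 were called in susceptible mice by limma (4 had an unadjusted p under 0.05, and 17.5% of all genes were called, 16.6% of those with a mean of 5 to 7 log2 CPM and 11% of those at 7 or more). In controls 7 were called, beside 27.8% of all genes, and 1 with the ID class in the fit. Of 29 potassium channel genes 3 were called (10.3%). Kcnj10, the inward rectifier of astrocytes, had 6.71 to 7.02 (median 6.94) in susceptible D2 mice and 5.58 to 6.29 (median 5.7) in susceptible B6 mice, a difference of 1.08 ± 0.10 (limma, adjusted p = 4.28e-10) against 0.99 ± 0.10 in controls. The other members called were Kcnb2 (-0.34 ± 0.11) and Kcnj9. Of 12 interneuron markers 1 was called (8.33%, beside 17.5% of all genes), Pvalb, the calcium-binding protein of fast-spiking interneurons (0.46 ± 0.13, adjusted p = 0.0108, limma), which was also higher in D2 controls (0.45 ± 0.14).

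In the list of serotonin, dopamine, noradrenaline and opioid receptors 5 of 23 were called in susceptible mice (21.7%, near the 17.5% of all genes), 2 higher and 3 lower in D2, and 1 of the 5 was called in controls. They included the kappa opioid receptor Oprk1 (-0.53 ± 0.17), the alpha adrenoceptor Adra1b (-0.48 ± 0.15) and the serotonin receptor Htr1a (0.44 ± 0.14), which in controls differed by -0.26 ± 0.18, -0.15 ± 0.16 and 0.20 ± 0.15. The differences of these receptors between the states did not pass (interaction adjusted p = 0.773, 0.664 and 0.75, limma). Each of these 3 calls was lost in 4 to 7 of 25 alternative fits. Of 6 monoamine enzymes 2 were called (33.3%, beside 17.5% of all genes). Maob, which breaks down monoamines, was lower in D2 (-0.47 ± 0.05, and -0.41 ± 0.06 in controls), as was Ddc, which makes them (-0.43 ± 0.13 and -0.63 ± 0.14).

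Among 15 stress hormone receptors and targets, 4 were called (26.7%, beside 17.5% of all genes), 2 in each direction. Crhbp, a binding protein that holds corticotropin-releasing hormone, was higher in D2 (0.64 ± 0.09, and 0.44 ± 0.10 in controls), and Crh itself was lower (-0.36 ± 0.13, adjusted p = 0.0442, limma), a call that 12 of 25 alternative fits lost. Hsd11b1, the enzyme that regenerates active glucocorticoid, was lower in D2 (-0.63 ± 0.11, and -0.68 ± 0.12). Of 17 immediate early genes, which follow recent neuronal activity, 0 were called in either state by limma, with 2 at an unadjusted p under 0.05 in each.

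Immune lists held strain differences of both signs. Of 22 MHC and antigen presentation genes 6 were called (27.3%, beside 17.5% of all genes), 1 higher and 5 lower in D2, and 5 of the 6 were called in controls in the same direction. H2-T22, a nonclassical class I molecule, had 2.70 to 3.07 (median 2.88) in susceptible D2 mice and 3.75 to 3.99 (median 3.86) in susceptible B6 mice and differed by -0.98 ± 0.06 against -1.25 ± 0.06, H2-Q6 by 1.68 ± 0.29 and H2-Eb1 by -1.23 ± 0.28. Of 24 interferon-stimulated genes 6 were called (25%), 1 higher and 5 lower, against 1 and 15 in controls, where 27.8% of all genes were called, with list medians of -0.15 and -0.38. With the ID class in the fit 7 were called in controls instead of 16. Bst2, which tethers budding viruses, differed by -1.75 ± 0.24 (-2.20 ± 0.26 in controls), Xaf1, a promoter of cell death, by 1.22 ± 0.10 (1.09 ± 0.11) and Trim30a by -0.64 ± 0.13.

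The glyoxalase, glutathione and detoxification list held the largest share of calls of the pathway lists, 11 of 27 (40.7%, beside 17.5% of all genes), 5 higher and 6 lower in D2, and 10 of the 11 were called in controls. Beside Glo1 it included Ephx2, an epoxide hydrolase (-0.46 ± 0.05 and -0.43 ± 0.06), and Nnt, which is described below. Of 29 replication-dependent histone genes 8 were called (27.6%, beside 17.5% of all genes), 4 in each direction, with Hist1h4c at -1.29 ± 0.12, Hist4h4 at 1.2 ± 0.15 and Hist1h2ac at -0.94 ± 0.25. Of 10 mitochondrially encoded genes 1 was called (10%, beside 17.5% of all genes), the ribosomal RNA mt-Rnr2 (-0.30 ± 0.10, adjusted p = 0.0304, limma), a call that 9 of 25 alternative fits lost. The mean level of these 10 genes was 9.37 to 9.79 log2 CPM in B6 controls, 9.05 to 9.90 in resilient B6, 8.45 to 8.88 in susceptible B6, 8.62 to 9.05 in D2 control and 8.48 to 8.80 in D2 susceptible mice. Among the 10, mt-Nd3 split by mouse ID without overlap, with means of 2.32 in the C1 and C2 mice and -2.98 in the C5 and C7 mice. It was named after its values were seen. Such a gene can weigh heavily on a mean of 10, and the mean without mt-Nd3 was not computed. On the mean of all 10, the susceptible B6 mice lay below all B6 controls, the C7 control at 9.54 included. This level moved in the same direction as their oligodendrocyte level. The part of either in the other was not tested.

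Calls were found on every autosome and the X chromosome, at unequal shares. The share of tested genes called in susceptible mice was highest on chromosomes 1 (22.6% of 1419), 4 (22.5% of 1089) and 7 (21.4% of 1537), and lowest on the X chromosome (8.1% of 676) among chromosomes with over 100 tested genes. Of 729 windows of 2 Mb with at least 10 tested genes, 100 held no call and 21 held calls for at least 50% of their genes. The densest was chr4:146000001-148000000 (GRCm38), with 13 of 18 genes called and 12 of them also called in controls, among them the zinc finger genes Zfp933, Zfp979, Zfp984 and Zfp992, which have near-identical neighbours. In chr7:58000001-60000000, 33 of 54 genes were called, among them copies of the small nucleolar RNA Snord116, which likewise cannot be told apart well by reads. By biotype, 23.2% of 491 lincRNAs, 17.9% of 14173 protein-coding genes and 15.9% of 1280 pseudogenes were called. The windows and chromosomes are named because they were the extremes, after their values had been seen.

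The genes with the smallest interaction p came closest to a strain difference that depended on the state, and none passed. Among those with a mean of at least 1 log2 CPM, the smallest p in the positive direction was that of Gm15361, a processed pseudogene on the X chromosome, with 2.65 to 2.98 (median 2.88) in susceptible D2 mice and 2.43 to 2.79 (median 2.6) in susceptible B6 mice, and 2.66 to 2.90 (median 2.76) in D2 and 2.77 to 3.44 (median 3.18) in B6 controls. Its difference was 0.25 ± 0.08 in susceptible and -0.39 ± 0.08 in control mice, called in opposite directions, and the interaction was 0.63 (95% interval 0.40 to 0.86), with an adjusted p of 0.0778 (limma). The means of B6 mice moved (susceptible minus control -0.54) more than those of D2 mice (0.09). The other gene called in opposite directions, Gm43205, chosen after its values were seen, differed by -0.48 and 0.47 (limma, interaction adjusted p = 0.223).

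Called in controls and not in susceptible mice, with the smallest interaction p, were Zscan26, a zinc finger protein, Mpeg1, a pore-forming protein of macrophages and microglia, C030037D09Rik, a lincRNA, and Gm10275, a pseudogene. Mpeg1 was 3.69 to 4.02 (median 3.75) in susceptible D2, 3.51 to 3.89 (median 3.6) in susceptible B6, 3.70 to 3.92 (median 3.86) in control D2 and 3.96 to 4.22 (median 4.11) in control B6 mice. Its difference was 0.16 ± 0.06 in susceptible and -0.26 ± 0.07 in control mice (interaction 0.42 (95% interval 0.24 to 0.61), adjusted p = 0.223, limma). No B6 control overlapped a susceptible B6 mouse for Mpeg1, while the D2 groups overlapped. As Mpeg1 was chosen for its small interaction p in these same mice, such a separation is likely and is not separate evidence.

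Zscan26 showed the same pattern at a smaller size, with 7.09 to 7.24 (median 7.2) in B6 controls and 6.91 to 7.02 (median 6.95) in susceptible B6 mice, and differed by -0.27 ± 0.03 in controls and -0.04 ± 0.03 in susceptible mice. For Zscan26, Mpeg1 and Gm10275 the group means moved in B6 (susceptible minus control -0.20, -0.46 and -0.30) and hardly in D2 (0.03, -0.03 and 0.03), and for C030037D09Rik they moved in both (-0.18 and 0.34). In the negative direction, Lrfn3, a synaptic adhesion protein, differed by 0.53 ± 0.11 in controls and -0.12 ± 0.10 in susceptible mice, Lat2, an adaptor of immune cell signalling, by 0.41 ± 0.11 and -0.23 ± 0.10, Gstt1, a glutathione transferase, by 0.27 ± 0.06 and -0.05 ± 0.05, and Gm10167 by 0.91 ± 0.16 and 0.01 ± 0.15. Their interaction adjusted p were 0.252, 0.291, 0.3 and 0.3 (limma).

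Called in susceptible mice and not in controls, with the smallest interaction p, were Gm15446, Gm18432, Vwa3b and Gm37195. Vwa3b, a protein with a von Willebrand factor domain, had 0.25 to 0.98 (median 0.71) in susceptible D2 mice and 1.23 to 1.68 (median 1.43) in susceptible B6 mice, a difference of -0.75 ± 0.11 (limma, adjusted p = 4.57e-06) against -0.15 ± 0.12 in controls, with an interaction of -0.60 (95% interval -0.93 to -0.27) and an adjusted p of 0.394. The lowest B6 value lay above the highest D2 value, and both strains' means moved apart (B6 0.29 up and D2 -0.31 from control to susceptible). Gm37195 differed by -0.34 ± 0.07 and Gm18432 by 0.29 ± 0.10, against 0.05 ± 0.08 and -0.25 ± 0.10 in controls. The call of Gm18432 was lost in 13 of 25 alternative fits.

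Gm15446 (protein coding, chromosome 5, 109923400 to 109943936), had the largest difference that was not called in controls. Its level was 4.51 to 5.49 (median 5.00) in susceptible D2 mice and 1.32 to 2.81 (median 2.43) in susceptible B6 mice, and 4.68 to 5.59 (median 5.12) in D2 and 2.58 to 5.88 (median 5.16) in B6 controls. The difference was 2.73 ± 0.44 in susceptible mice (limma, adjusted p = 1.82e-05) and 0.19 ± 0.47 in controls, with an interaction of 2.54 (95% interval 1.23 to 3.85) and an adjusted p of 0.347. The 6 B6 controls were not alike, since 5 had 5.03 to 5.88 and control replicate 6 had 2.58, the level of the susceptible B6 mice. That control was the only one with an ID that begins with C7.

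Across the 18 B6 mPFC mice, the level of Gm15446 split by ID without overlap. The 9 mice with IDs C1 and C2 had 5.02 to 5.88 log2 CPM and the 9 with IDs C5 and C7 had 1.32 to 2.81, although the former were controls and resilient mice and the latter 1 control, 2 resilient and 6 susceptible mice. Tmem181b-ps, a transcribed pseudogene (chromosome 17, 6438524 to 6467022), had the opposite split, with 4.61 to 5.02 and 5.83 to 6.4. It differed between the strains by -1.05 ± 0.19 in susceptible mice (limma, adjusted p = 8.41e-05) and by -0.09 ± 0.20 in controls. This gene, Gabra2, Gm28438 and Cd59a were chosen after their values were seen.

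Nnt, the mitochondrial enzyme that passes reducing power to NADPH (chromosome 13, 119335448 to 119408997), was 5.04 to 5.26 in the C1 and C2 mice and 5.63 to 5.93 in the C5 and C7 mice. In susceptible mice it was 5.03 to 5.35 (median 5.15) in D2 and 5.63 to 5.93 (median 5.68) in B6, a difference of -0.56 ± 0.09 (limma, adjusted p = 3.32e-05), and in controls the difference was -0.12 ± 0.10 (adjusted p = 0.386). Its strain difference in susceptible mice thus compared D2 mice with B6 mice of the higher class alone. As background, Nnt is the gene that carries a deletion in the C57BL/6J substrain and is intact in other C57BL/6 substrains, and all the B6 mice here are labelled C57BL/6Crl, with C57BL/6NCrl as the strain ordered per the study's methods. The substrain of single mice was not tested.

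The opposite case was a strain difference called in controls and not in susceptible mice. Wdfy1, an adaptor of endosomal signalling (chromosome 1, 79702262 to 79776143), was 6.09 to 6.60 (median 6.45) in susceptible D2 and 6.02 to 6.48 (median 6.17) in susceptible B6 mice, and differed by 0.18 ± 0.17 there and by 1.1 ± 0.18 in controls (limma, adjusted p = 0.562 and 1.31e-05, interaction adjusted p = 0.385). By ID it was 4.87 to 5.2 in C1 and C2 and 5.98 to 6.48 in C5 and C7 mice. Gabra2, the alpha 2 subunit of the GABA-A receptor, which is known for a low-expression variant in C57BL/6J mice (chromosome 5, 70957597 to 71095849), was 6.28 to 6.64 and 7.06 to 7.31, and its strain difference was 0.13 ± 0.12 in susceptible and 0.74 ± 0.13 in control mice. Gm28438, a pseudogene, was -1.95 to 0.62 and 4.44 to 6.36, and Cd59a, an inhibitor of complement, 2.55 to 3.2 and 3.71 to 4.2.

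**Figure D5:**
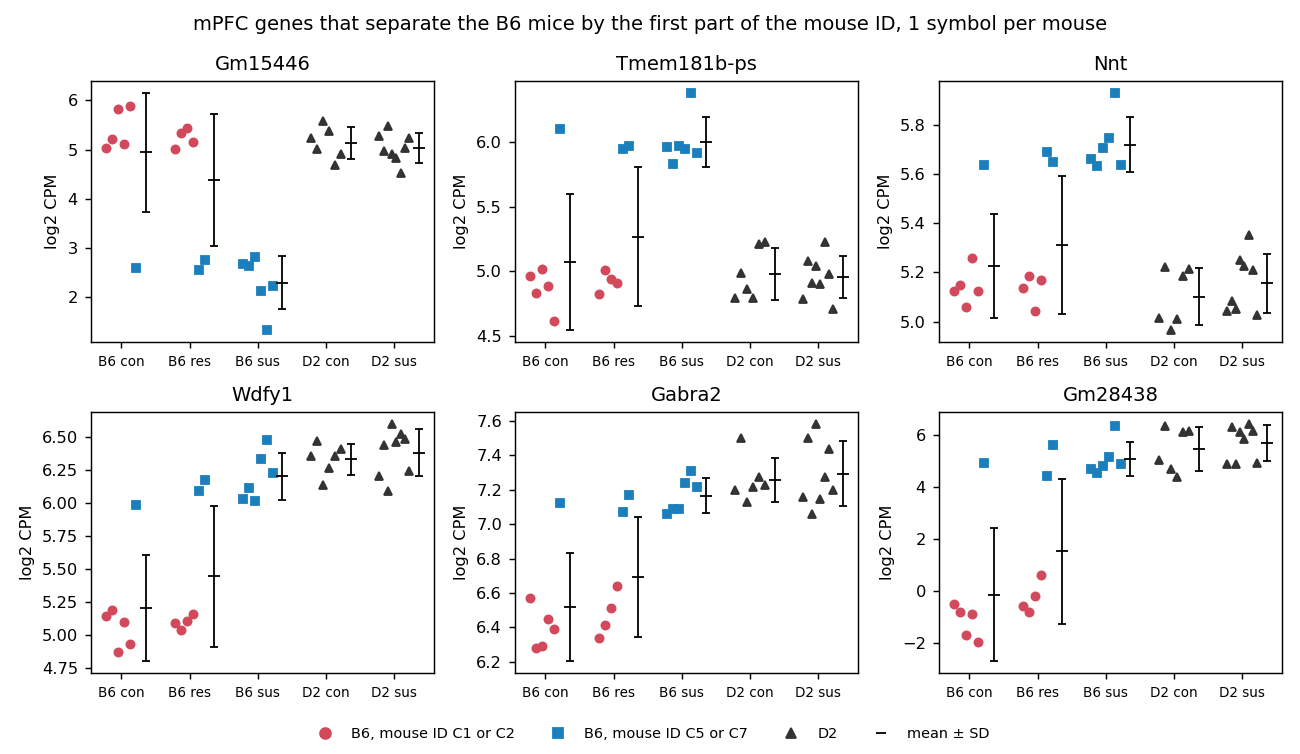
Log2 CPM of 6 genes in every mPFC mouse, by group, with the mean and SD beside each group and the B6 mice marked by the first part of the mouse ID. In each panel the 9 B6 mice with IDs C1 or C2 and the 9 with IDs C5 or C7 do not overlap, and the single C7 control and the 2 C5 resilient mice have the level of the susceptible mice.

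With the ID class of the B6 mice in the fit, the interactions of these genes were smaller. The interaction became 0.31 for Gm15446, -0.03 for Tmem181b-ps, -0.0074 for Nnt, -0.12 for Wdfy1, -0.05 for Gabra2 and -0.34 for Gm28438, and the control difference of Gm15446 became 2.42. Over all genes 3348 were then called in susceptible mice, 2687 in controls instead of 5265, with a median SE of 0.12 instead of 0.09, and 0 for the interaction (1070 at an unadjusted p under 0.05). The ID class itself was called for 30 genes (0.158%), and 22 of these had no overlap between the classes. A call between classes makes such separation likely, so the 22 is not separate evidence of the split. The classes were formed after these values had been seen, so the calls between them are a description. As no susceptible B6 mouse had a C1 or C2 ID and 1 control had a C7 ID, the effect of defeat on the strain differences of B6 mice rests on few mice once the ID is considered.

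Other mice and regions bore on these genes. In the BNST (the bed nucleus of the stria terminalis), a relay of anxiety circuits sampled from other mice, counts were compared with edgeR's quasi-likelihood test. There Gm15446 was 0.16 to 1.27 log2 CPM in B6 controls, -0.11 to 1.26 in susceptible B6, 3.36 to 5.08 in D2 controls and 4.04 to 4.21 in susceptible D2 mice, a log2 fold change of 3.52 in controls and 3.38 in susceptible mice (edgeR, adjusted p = 1.23e-08 and 3.26e-08). Tmem181b-ps likewise differed in both states (-1.45 and -1.07). In the BNST the large strain difference of Gm15446 was thus there without defeat. In the ventral hippocampus (vHPC), where every B6 mouse had a C1 or C2 ID, Gm15446 was 4.55 to 4.64 in the 3 susceptible B6 mice and 3.92 to 4.16 in the 5 susceptible D2 mice, on the vHPC table's own batch-adjusted scale. The strain difference there was -0.54 for Gm15446 and 0.64 for Tmem181b-ps (limma, adjusted p = 1.93e-06 and 1.2e-08). Both were opposite in sign to the BNST and to susceptible mPFC mice. These genes also differed by phenotype within this ID class, as B6 controls had 4.98 to 5.14 for Gm15446, without overlap with the susceptible B6 mice. Wdfy1 was 4.43 to 4.75 in vHPC B6 controls, 5.24 to 5.41 in susceptible B6 and 6.52 to 6.78 in susceptible D2 mice, and Gabra2 was 6.32 to 6.57 in B6 controls and 7.12 to 7.29 in susceptible B6 mice. Nnt was 5.27 to 5.4 in B6 controls and 5.00 to 5.08 in susceptible B6 mice, the opposite order to the mPFC. The D2 mice of the vHPC shifted in the same direction as the B6 mice. Gabra2 was 7.80 to 7.98 in D2 controls and 8.04 to 8.33 in susceptible D2 mice. Nnt was 4.88 to 4.97 and 4.76 to 4.87. Wdfy1 was likewise higher and Gm15446 lower in susceptible D2 mice, with overlap between the groups for Gm15446 alone. In the vHPC these levels differed between control and susceptible mice of both strains, with 3 mice in the susceptible B6 group. A shift shared by both strains is not in itself a change in the strain difference. The number of vHPC calls depended strongly on library set, as given below. The parts of defeat, ID class and library set in these levels were not tested.

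The genes with a strain difference in the BNST gave a measure of persistence that no mPFC value had chosen. Of 17515 BNST genes 907 were called between 5 susceptible D2 and 5 susceptible B6 mice (5.18%), 284 higher and 623 lower in D2, and 563 of these had an absolute log2 fold change of at least 1. Of the 563, 478 were measured in the mPFC. In the direction of the BNST, 395 of the 478 (82.6%) differed in susceptible mPFC mice and 402 (84.1%) in control mPFC mice, and 294 and 315 of them were called there, 284 in both states. Their median mPFC difference in the BNST direction was 0.54 in susceptible mice (quartiles 0.08 and 1.63) and 0.55 in controls (quartiles 0.13 and 1.73), and 214 of the 478 were larger in susceptible than in control mice. For strain differences found in other mice, the medians of unstressed and susceptible mice differed little, and the median difference between the states was -0.02.

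In the reverse direction, 2979 of the 3317 mPFC calls were measured in the BNST, 2242 of them (75.3%) had the same sign there and 420 were called in the same direction. Of the 325 with an mPFC difference of at least 1, 305 (93.8%) had the same sign and 184 were called in the same direction, against 1433 of 2026 (70.7%) and 131 for those below 0.5. In the vHPC, where 6389 of 19559 genes were called between 5 D2 and 3 B6 susceptible mice (32.7%), 2695 of 3096 mPFC calls (87.0%) had the same sign and 1882 were called in the same direction. The vHPC count was 739 with library preparation set in the fit, and 2 of the susceptible D2 mice gave a library to both regions. Stab2, Dnah6, Fmo2, Cfap54, Fggy, Rpl29, Myo7a, Tnnt2, Mcmdc2 and Alad were called in the same direction in susceptible mice of both other regions.

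Within library preparation sets most differences held their sign, as is likely for genes called on the same mice. Sets 1, 2, 3 and 4 of the 5 mPFC sets held susceptible mice of both strains, and 91.7%, 98.0%, 99.3% and 98.3% of the 3317 called genes had the same sign within them, 2899 genes (87.4%) in all 4 sets. The sets hold 1 to 3 susceptible mice of a strain, and the same mice entered the overall comparison. With library set in the fit 2819 genes were called.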

How the data were processed

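RNA sequencing of the mPFC, vHPC and BNST of single mice was compared between groups taken from the strain, phenotype and region labels. The deposited mPFC and vHPC tables hold log2 CPM, which the authors made from trimmed and deduplicated reads aligned with STAR to GRCm38 and counted over exons with HTSeq, by a filter on low counts, limma's voom and an adjustment for library preparation set with ComBat. The vHPC values were also adjusted for sequencing batch. The deposited BNST table holds whole read counts per gene as the authors counted them, without that filter, voom or ComBat. Library preparation sets were taken from the study's sample sheet. Reads of D2 mice were aligned to the B6 reference, and the effect of this on the strain differences was not tested. BNST counts summed to 11825757 to 25793910 per mouse. The counts behind the log2 CPM were not recovered from them, so no counting error is given for mPFC values.

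The log2 CPM were fitted with limma 3.58.1 (robust empirical Bayes, R 4.3.3) with 1 mean per group over the 32 mPFC libraries, without covariates, so all comparisons share 1 estimate of spread per gene. BNST counts were tested with edgeR 4.0.16 (quasi-likelihood, TMM, genes that reached 1 CPM in 6 or more libraries), with DESeq2 1.42.0 as an alternative. Tests were two-sided, with Benjamini-Hochberg adjustment over all genes of a table and a threshold of 0.05. Gene names and positions came from GENCODE M21 (GRCm38). The scripts were tested on simulated data.

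The comparison and the gene lists were chosen with earlier results of these data known. Genes were named by rule: per direction, the 8 largest differences among called protein-coding genes with a mean of at least 1 log2 CPM and groups that did not overlap, the 4 smallest interaction p per direction, the 4 smallest interaction p among genes called in 1 state alone, and up to 3 called members per list. Exceptions are marked as chosen after their values were seen. Alternatives changed the libraries, covariates, scale, filter and tool. Values of some genes are not reported here.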

Additional observations from a re-analysis of the deposited data

Results flagged for a closer look

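Among 78 named genes and the mean levels of the oligodendrocyte and striatal lists, 400 groups of 6 or 8 mice were examined for a mouse far from the others of its group by Dixon's test at the 95% level, and 30 stood apart. Chance alone would give about 1 in 20 groups. Values are log2 CPM, each followed by the nearest value of the group.

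B6 control replicate 6, the only control with an ID that begins with C7, stood apart in 7 genes, with Gm15446 2.58 (nearest 5.03), Wdfy1 5.98 (nearest 5.2), H2-Eb1 -0.37 (nearest 0.66), Nnt 5.63 (nearest 5.26), Tmem181b-ps 6.11 (nearest 5.02), Gm28438 4.93 (nearest -0.50) and Gabra2 7.12 (nearest 6.57). All of these except H2-Eb1 were described above for their split by mouse ID, and Tmem181b-ps, Gm28438 and Gabra2 were named after that split had been seen. Their flags repeat that split and are not separate evidence of it.

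B6 resilient replicate 5 stood apart in Gm10260 -1.59 (nearest -0.75). B6 control replicate 5 stood apart in C1qb 4.34 (nearest 4.03), Hist1h4c 3.2 (nearest 2.90), Myo5a 10.09 (the others higher) and Cap1 6.99 (nearest 7.07). B6 susceptible replicate 5 stood apart in Sox10 2.86 (nearest 3.14), Tmem181b-ps 6.4 (nearest 5.97) and Gm28438 6.36 (nearest 5.13). B6 resilient replicate 3 stood apart in Kcnb2 7.01 (nearest 7.25) and Hist4h4 2.25 (nearest 1.96). B6 susceptible replicate 4 stood apart in Adra1b 3.04 (nearest 3.84) and Myo5a 9.89 (nearest 10.18). B6 resilient replicate 2 stood apart in Xaf1 2.40 (nearest 2.26). B6 control replicate 2 stood apart in Tyrp1 -4.97 (nearest -1.11).

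D2 control replicate 2 stood apart in Fmo2 2.95 (nearest 2.67). D2 susceptible replicate 2 stood apart in Fmo2 3.11 (nearest 2.85). D2 control replicate 4 stood apart in Hba-a2 -5.06 (nearest -2.02). D2 control replicate 6 stood apart in Myoc -0.22 (nearest -0.99) and the mean of the striatal markers 4.26 (nearest 3.08). D2 susceptible replicate 4 stood apart in Gstt1 2.08 (nearest 2.3). D2 control replicate 3 stood apart in Ocln 3.80 (nearest 3.94). D2 susceptible replicate 8 stood apart in Ocln 3.72 (nearest 3.87). D2 susceptible replicate 7 stood apart in the mean of the striatal markers 4.79 (nearest 3.42).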

How the results depend on the processing

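In the mPFC, the number of genes called in susceptible mice (3317) ran from 2954 to 3591 when 1 mouse at a time was left out, that in controls from 4520 to 5490 and that called in both states from 2366 to 2629. The interaction count ran from 0 to 2, and was 2 with the control and susceptible libraries alone (1614 genes at an unadjusted p under 0.05, limma). Oligodendrocyte markers called in susceptible mice ran from 0 to 1 and in controls from 15 to 16. The median mPFC difference of the BNST-chosen genes ran from 0.50 to 0.55 in susceptible mice and from 0.54 to 0.59 in controls, was 0.45 and 0.48 on the log2(CPM + 1) scale, and was 0.35 and 0.39 for genes with a mean of at least 1 log2 CPM.

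With the mouse ID class as a term, 2687 genes and 1 oligodendrocyte marker were called in controls, the BNST-chosen median in controls was 0.60, and the control difference of Cd59a turned from 0.53 to -0.33. Without the 9 libraries high in striatal markers, 2117 genes and 1 oligodendrocyte marker were called in controls and 1634 genes in both states, with fewer mice in every group except susceptible B6. Both alternatives were chosen after seeing the data. The BNST count was 1450 with DESeq2 and ran from 498 to 918 when 1 mouse was left out, with 498, 541 and 602 without D2 susceptible replicates 4, 2 and 5. The vHPC count was 739 with library set as a term and ran from 4809 to 6096 without 1 mouse. The cause of these shifts was not tested. No paired analysis was possible because the replicate numbers only name mice, and within a region every mouse was in a single group.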
